A study of Homo sapiens with 2 samples.

Results

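The genes described here encode the receptors, the main substrate and the binding proteins of the insulin-like growth factor (IGF) system: IGF1R, IGF2R, INSR, IRS1 and IGFBP3 to IGFBP7. They were taken by gene name, from a list drawn up with earlier results of these data known, and 9 of the 10 names on the list were analysed among 29452 gene rows. IGFBP2 was not analysed here. Messenger RNA was sequenced from MDA-MB-231, a widely used human cell line of triple-negative breast cancer, in 1 library of cells carrying a short hairpin RNA against CDK14 (CDK14-sh) and 1 library of cells carrying a scramble control. The targeted gene encodes a cyclin-dependent kinase that acts with cyclin Y in Wnt signalling. The labels do not say which hairpin was used, when cells were harvested, or whether the cells were a pool or a clone.

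The IGF ligands bind IGF1R, a receptor tyrosine kinase that can also pair with the insulin receptor INSR. Activated receptors phosphorylate IRS1, a docking protein that passes the signal to phosphatidylinositol 3-kinase (PI3K) and AKT. IGF2R has no kinase domain: it carries IGF2 and enzymes tagged with mannose 6-phosphate to lysosomes. IGFBPs are secreted proteins that hold IGFs outside the cell, which can block or prolong their action, and several also act without IGF.

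Levels are the authors' RPKM values (reads per kilobase of exon, scaled to the reads that the library had in genes), and the reads behind them were recovered from the values. The CDK14-sh library held 15478156 reads and the scramble control library 17217564. Intervals in parentheses are 95% exact counting intervals (Clopper-Pearson for ratios, Poisson for levels). They cover counting error only and leave out variation between cultures and libraries. Copies made by PCR are not independent molecules, so the intervals may be too narrow even for counting error. Each group held 1 library, so no difference has a replicate check and no test between the groups was possible. A gene entered a count if it reached 1 RPKM in the higher library, and passed 2-fold if the ratio did so after 0.1 RPKM was added to both levels. Folds are plain ratios of RPKM. In bulk RNA, fewer cells of a kind and less RNA per cell cannot be told apart.

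CDK14 itself had 58 reads in CDK14-sh (0.548 RPKM) and 292 in the scramble control (2.48 RPKM). Markers of a mesenchymal-like breast cancer line (VIM, CD44, MSN, CAV1, AXL and EGFR) lay between 14.0 and 146 RPKM in CDK14-sh and between 16.3 and 248.9 RPKM in the control, with sums of 496 and 758 RPKM. The estrogen and progesterone receptor genes and CDH1 lay between 0 and 0.0379 RPKM in CDK14-sh and between 0.00852 and 0.0188 RPKM in the control, while ERBB2 stood at 2.96 and 2.33 RPKM and EPCAM at 5.46 and 5.33 RPKM. Of markers of other cells, LUM, DCN and VWF had 0 reads in both libraries. Fibroblast markers (4 of 4 with a row) summed to 2.03 RPKM in CDK14-sh and 1.68 RPKM in the control, nearly all of it COL1A1. Leukocyte markers (2 of 4 with a row) summed to 0.777 and 0.698 RPKM, and endothelial markers (3 of 3) to 0.221 and 0.438 RPKM. The part of such RNA in the results was not tested.

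The binding protein transcripts IGFBP3, IGFBP4 and IGFBP7 were lower in the CDK14-sh library, and the receptor transcripts IGF1R and IGF2R were nearly level. For the third receptor, INSR, the depth left a wider interval (0.994 to 1.53). IGFBP3 was 2.58-fold lower and IGFBP4, by far the most abundant of these genes, 2.02-fold lower. Among the signalling members, IRS1 was 2.24-fold lower, whereas IGF1R, IGF2R and INSR had ratios of 0.964, 0.952 and 1.23. Of the 8 members that passed the level filter, 3 were at least 2-fold lower and 0 at least 2-fold higher. Among protein-coding genes that passed it, 226 of 10421 (2.17%) were at least 2-fold lower and 109 (1.05%) at least 2-fold higher. Over rows of every kind, 516 of 14878 (3.47%) were lower and 478 (3.21%) higher. In TPM, which rescales both libraries to a common sum, 1128 were lower and 609 higher. A common shift alone cannot raise both counts, so the TPM counts are not like for like with these shares. The median log2 ratio was -0.47 over the 8 members and 0.03 over protein-coding genes.

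**Figure D1:**
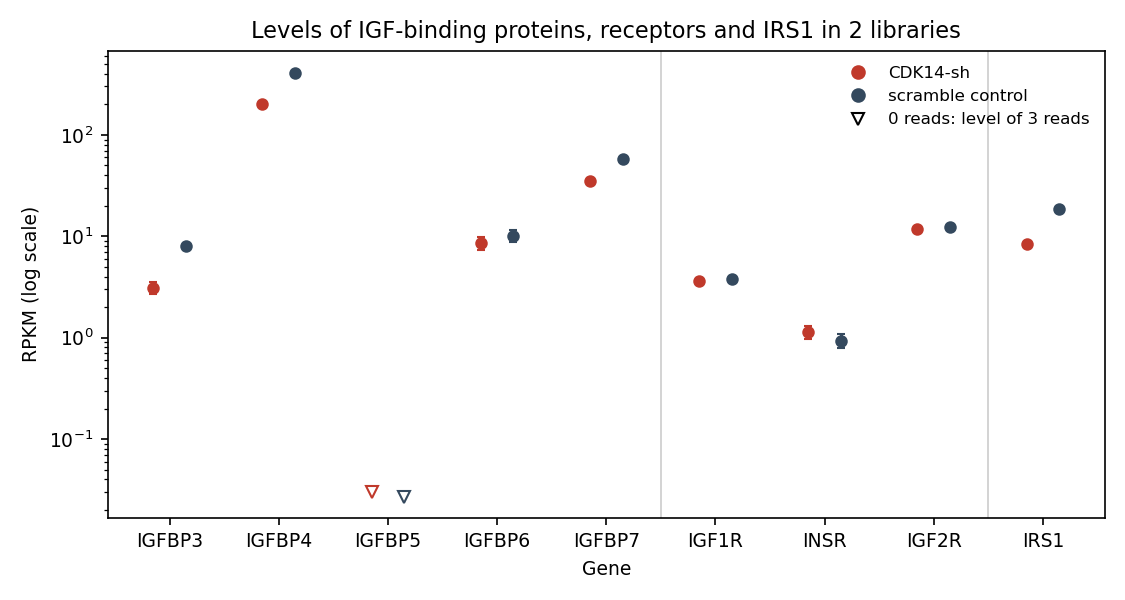
Level of each gene in RPKM, on a log scale, in the CDK14-sh library (red) and the scramble control library (blue), with 95% exact Poisson intervals that cover counting error only. IGFBP4 stands highest at 204 and 411 RPKM, IGFBP3 and IRS1 are visibly lower in CDK14-sh, and IGF1R and IGF2R are nearly level. The intervals of INSR are wider. Open triangles show the level that 3 reads would give for IGFBP5, which had 0 reads.

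IGFBP4 binds IGFs and is inactivated by the metalloproteinase PAPPA, which releases the ligand. Its gene, on the plus strand of chromosome 17 between 40443461 and 40457731 (GRCh38), overlaps no other row. It stood at 204 RPKM in CDK14-sh (199 to 209, 6937 reads), against 411 RPKM in the scramble control (404 to 417, 15552 reads). The CDK14-sh level was 49.6% of the control level, 2.02-fold lower (1.96 to 2.07), so the counting interval reaches below 2-fold. With totals that exclude mitochondrial reads its log2 ratio was -0.97, which does not pass 2-fold, against -1.01 with all reads counted. In level IGFBP4 ranked 81 among protein-coding genes in CDK14-sh and 28 in the control. It made up 81.2% of the summed RPKM of the binding proteins IGFBP3 to IGFBP7 in CDK14-sh and 84.4% in the control. That sum was 251 RPKM in CDK14-sh and 486 RPKM in the control, and without IGFBP4 it was 47.1 and 75.7 RPKM.

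IGFBP3 encodes the main carrier of IGFs in serum and also enters cells. The gene lies on chromosome 7 from 45912245 to 45921874 on the minus strand and overlaps no other row. Its level was 3.08 RPKM in CDK14-sh (2.69 to 3.52, 218 reads) and 7.95 RPKM in the scramble control (7.34 to 8.60, 626 reads). This was 2.58-fold lower (2.21 to 3.03), the lowest ratio of the members, and ranked 80 from the lowest among the 10421 protein-coding genes.

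IGFBP7 binds IGFs weakly, binds insulin, and is deposited in the matrix. It is the second most abundant of these transcripts, from chromosome 4 between 57030773 and 57110385 on the minus strand. The level was 35.5 RPKM in CDK14-sh (33.3 to 37.7, 1059 reads) and 57.6 RPKM in the control (55.1 to 60.3, 1915 reads). It was 1.63-fold lower (1.51 to 1.75), an interval that lies wholly between 1-fold and 2-fold. On the opposite strand, POLR2B shares 270 of its 1930 exon bases and the antisense row IGFBP7-AS1 shares 94. The kit marks strand, but the strand setting of the counting is not given in the sources used here, so reads in the shared bases cannot be told apart. IGFBP7-AS1 stood at 5.57 RPKM in CDK14-sh and 9.25 RPKM in the control, 1.66-fold lower (1.36 to 2.04), and POLR2B at 28.99 and 32.4 RPKM.

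IGFBP6, which binds IGF2 in preference to IGF1, lies on chromosome 12 (plus strand, 53097436 to 53102345). Its level was 8.54 RPKM in CDK14-sh, from 169 reads, and 10.1 RPKM in the control, from 223 reads. The ratio was 1.19-fold lower with an interval from 1.46-fold lower to 1.03-fold higher, so no difference was detectable at this depth. No reads fell on IGFBP5, on chromosome 2 from 216672105 to 216695525 (minus strand): the count was 0 in CDK14-sh and 0 in the control. A floor of 3 reads would correspond to 0.0301 RPKM in CDK14-sh and 0.0270 RPKM in the control for this gene, and the exact Poisson intervals of a count of 0 reach 0.0370 and 0.0333 RPKM.

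**Figure D2:**
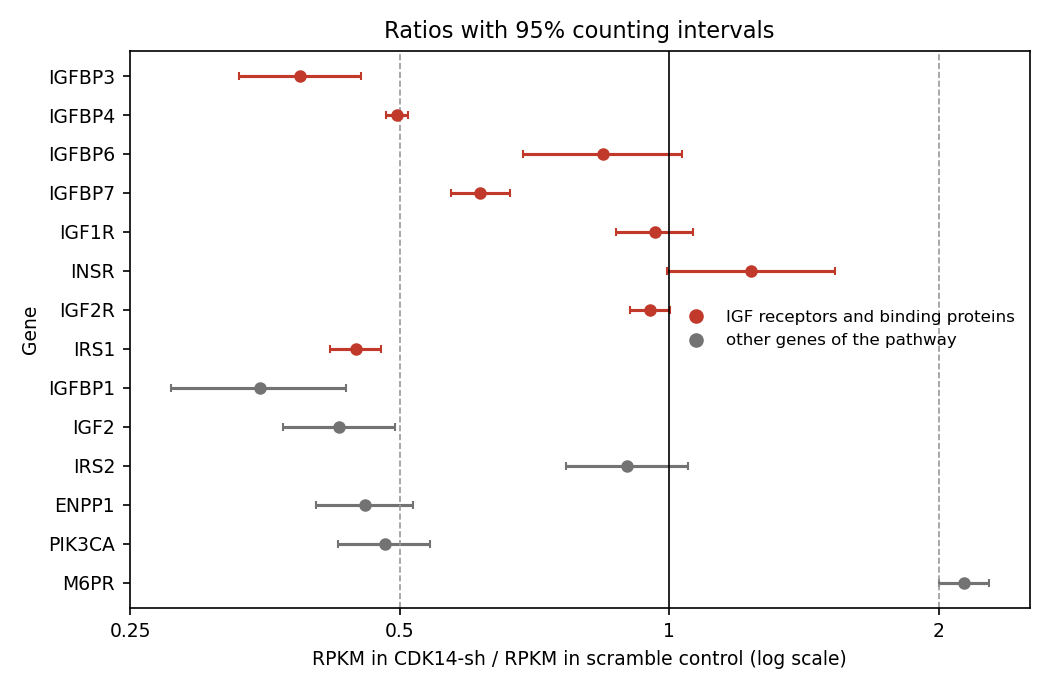
RPKM in CDK14-sh divided by RPKM in the scramble control for the members with reads (red) and for 6 other genes of the pathway (grey), on a log scale with 95% Clopper-Pearson counting intervals and dashed lines at 2-fold. IGFBP3, IRS1, IGFBP1 and IGF2 lie wholly below 0.5, the intervals of IGF1R, IGF2R, INSR, IGFBP6 and IRS2 include 1, and M6PR stands at 2.13.

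IGF1R, the receptor tyrosine kinase for both IGFs, lies on chromosome 15 (plus strand, 98648971 to 98964530). It had 3.63 RPKM in CDK14-sh (3.37 to 3.89, 758 reads) and 3.76 RPKM in the scramble control (3.52 to 4.02, 875 reads). Its ratio of 0.964 has an interval from 0.873 to 1.06. With levels scaled to the reads in genes, counting error alone bounds the difference between these libraries at 1.15-fold lower and 1.06-fold higher. IGF2R, on chromosome 6 (plus strand, 159969099 to 160113507), is the most abundant receptor of the list. It had 2698 reads in CDK14-sh (11.7 RPKM) and 3151 in the control (12.3 RPKM), a ratio of 0.952 (0.904 to 1.003).

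INSR, on chromosome 19 from 7112255 to 7294034 on the minus strand, had 184 reads in CDK14-sh (1.14 RPKM) and 166 in the control (0.923 RPKM). It passed the level filter through the CDK14-sh library only, and its ratio of 1.23 has an interval from 0.994 to 1.53. INSR is the only member whose ratio lay above 1, and the depth does not separate it from 1. Within a library, IGF1R exceeded INSR 3.19-fold in CDK14-sh (2.71 to 3.76) and 4.08-fold in the control (3.45 to 4.84), per exon length. IGF2R exceeded IGF1R 3.22-fold in CDK14-sh (2.97 to 3.50) and 3.26-fold in the control (3.03 to 3.52). TPM shifts every plain ratio by -0.15 log2, and ratios with a pseudocount by about as much. In TPM the log2 ratios of IGF1R and IGF2R were -0.20 and -0.22, both outside their counting intervals.

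IRS1, the docking protein downstream of IGF1R and INSR, lies on chromosome 2 from 226731317 to 226799759 on the minus strand and overlaps no other row. Its level was 8.37 RPKM in CDK14-sh (7.92 to 8.84, 1290 reads), against 18.8 RPKM in the scramble control (18.1 to 19.4, 3215 reads). That is 2.24-fold lower (2.10 to 2.39), and its ratio ranked 138 from the lowest among protein-coding genes. IRS2, the other broadly expressed substrate, stood at 2.35 RPKM in CDK14-sh and 2.62 RPKM in the control, 1.11-fold lower with an interval from 1.30-fold lower to 1.05-fold higher. IRS1 exceeded IRS2 3.56-fold in CDK14-sh (3.14 to 4.06) and 7.16-fold in the control (6.43 to 8.001). The intervals of these 2 ratios do not overlap.

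The order of levels therefore differed between the libraries. In CDK14-sh it ran IGFBP4, IGFBP7, IGF2R, IGFBP6, IRS1, IGF1R, IGFBP3, INSR, and the counting intervals of the neighbours IGFBP6 and IRS1, and of IGF1R and IGFBP3, overlapped. In the scramble control it ran IGFBP4, IGFBP7, IRS1, IGF2R, IGFBP6, IGFBP3, IGF1R, INSR, with no neighbouring intervals overlapping. IRS1 thus stood below IGF2R in CDK14-sh and above it in the control.

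**Figure D3:**
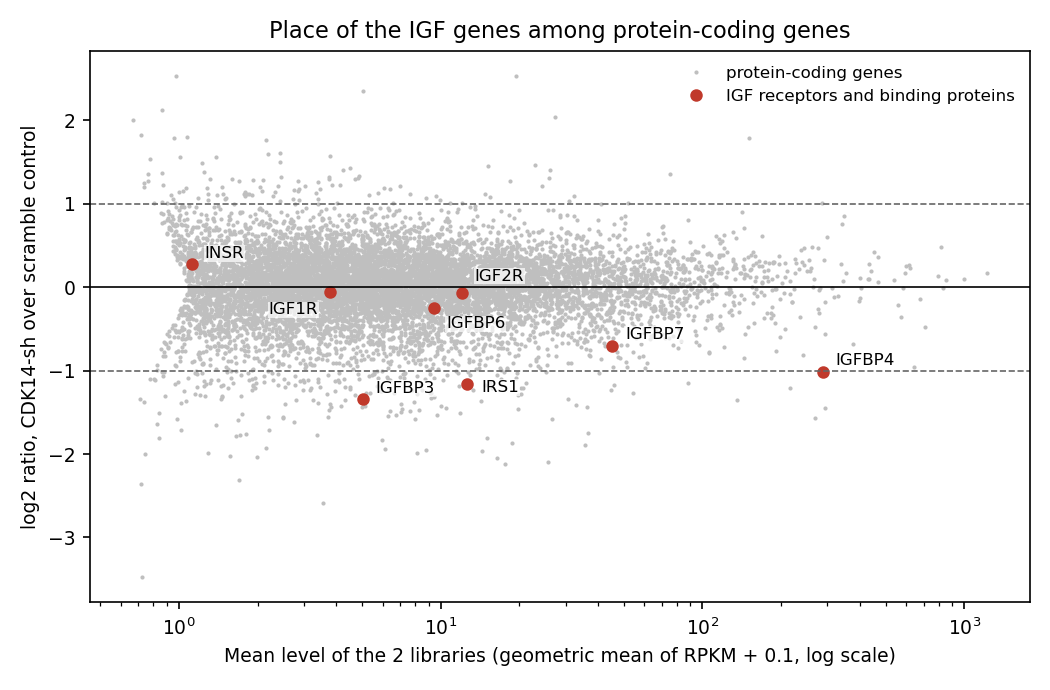
log2 ratio of CDK14-sh over scramble control (0.1 RPKM added) against the mean level of both libraries on a log scale, for 10421 protein-coding genes (grey) and the 8 members that passed the level filter (red), with dashed lines at 2-fold. IGFBP3, IRS1 and IGFBP4 lie below the lower line at log2 ratios of -1.34, -1.15 and -1.01. IGF1R and IGF2R lie near 0, and INSR at 0.28.

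The upstream sequences of the 3 genes past 2-fold are shown with that of IGF2R, which was nearly level, to set side by side promoters of members that did and did not differ. Sequences are from RefSeq on GRCh38.p14, where 8 of the 9 genes matched and IGFBP7 did not. Each run is the 150 bases before the RefSeq transcript start, 5′ to 3′ on the gene's strand. Capitals mark matches on either strand to TATANA (TATA box), GGGCGG (GC box), CACGTG (E-box) or GGAATG (TEAD). Searches for ATCAAAG (TCF/LEF, the factors of Wnt signalling) and TGTTTAC (FOXO) found no match in these 4 genes. The regions are chr17:40443300-40443449 (plus strand) for IGFBP4, chr7:45921273-45921422 (minus) for IGFBP3, chr2:226799821-226799970 (minus) for IRS1 and chr6:159968932-159969081 (plus) for IGF2R. The IGFBP3 region lies inside the span of its counted row, which reaches further upstream, to 45921874. The RefSeq start used for IGFBP3 is therefore not the outermost start of that row.
IGFBP4: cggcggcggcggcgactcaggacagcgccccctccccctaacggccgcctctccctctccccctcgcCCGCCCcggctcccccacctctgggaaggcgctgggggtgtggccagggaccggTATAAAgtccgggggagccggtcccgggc
IGFBP3: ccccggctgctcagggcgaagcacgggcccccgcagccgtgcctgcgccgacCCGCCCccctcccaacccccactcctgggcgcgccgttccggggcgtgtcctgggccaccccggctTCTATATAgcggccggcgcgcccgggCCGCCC
IRS1: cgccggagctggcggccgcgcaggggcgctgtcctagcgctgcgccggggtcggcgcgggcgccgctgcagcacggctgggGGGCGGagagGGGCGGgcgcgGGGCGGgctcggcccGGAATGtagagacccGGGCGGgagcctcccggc
IGF2R: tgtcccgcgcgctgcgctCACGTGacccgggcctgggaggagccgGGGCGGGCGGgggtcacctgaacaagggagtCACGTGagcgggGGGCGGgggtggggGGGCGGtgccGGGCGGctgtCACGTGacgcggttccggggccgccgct

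Within the window of 250 bases before to 50 after the start, TATANA matched at -29 in IGFBP4 and, as overlapping matches on both strands, at -32 and -30 in IGFBP3. It matched in no other of the 8 genes, which leave out IGFBP7, and in 19.0% of 35116 RefSeq promoters. CACGTG, present in 7.26% of promoters, matched 3 times in IGF2R, at -132, -74 and -28, and once in IRS1, at 35 bases after the start. GGAATG, present in 14.0% of promoters, matched in IRS1 (-33), IGFBP6 (-101) and IGFBP5 (-235). TGTTTAC (3.42% of promoters) matched only in IGFBP6 and ATCAAAG (2.62%) in none of the 8. GGGCGG, present in 45.0% of promoters, matched in 7 of the 8 genes, IGFBP5 being the exception. G and C made up 71.6% of the 250 upstream bases of IGFBP4, 76% in IGFBP3, 80.8% in IRS1 and 79.2% in IGF2R, against a median of 58% over promoters. A match is a description of these letters and says nothing of binding.

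Of the ligands of these receptors, IGF1 had 1 read in CDK14-sh, against 5 in the control, a ratio of 0.222 with an interval from 0.00470 to 1.99. IGF2, which signals through IGF1R and an INSR isoform and is cleared by IGF2R, had 266 reads in CDK14-sh (2.75 RPKM) and 691 in the control (6.41 RPKM), 2.34-fold lower (2.02 to 2.70). The readthrough row INS-IGF2 shares 998 bases with IGF2 on the same strand and had 16 and 43 reads, so the 2 rows are not separate results. AC132217.4 on the same strand shares another 373 bases of IGF2 and IGF2-AS on the opposite strand 91.

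Among other IGF-binding and IGFBP-domain proteins, 1 of 8 measured genes was at least 2-fold lower and 1 at least 2-fold higher. Over protein-coding genes the shares were 2.17% lower and 1.05% higher. The list had a median log2 ratio of 0.003. IGFBP1, a binding protein that insulin represses in liver, had 105 reads in CDK14-sh (4.10 RPKM) and 335 in the control (11.8 RPKM), 2.87-fold lower (2.30 to 3.61). ESM1, encoding the endothelial proteoglycan endocan, stood at 2.997 and 1.29 RPKM, 2.32-fold higher (1.69 to 3.21). The abundant matricellular genes CYR61 (353 and 335 RPKM) and CTGF (90.8 and 95.2 RPKM), whose proteins carry an IGFBP-like domain, had ratios of 1.05 and 0.954.

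No gene of the 5 measured IGFBP proteases, their inhibitors and cell-surface partners passed 2-fold, against 2.17% lower and 1.05% higher over protein-coding genes. The list had a median of -0.36, but of 0.082 with no level filter, with at least 5 RPKM or with at least 30 reads. These settings change which of the genes enter. LRP1, an endocytic receptor that binds IGFBP3, was 1.86-fold lower (1.66 to 2.09) in CDK14-sh. PAPPA, the protease of IGFBP4, stood at 1.13 RPKM in CDK14-sh and 1.86 RPKM in the control, 1.65-fold lower (1.38 to 1.96). The PAPPA row shares 2450 of its 11573 exon bases with PAPPA-AS1 on the opposite strand.

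**Figure D4:**
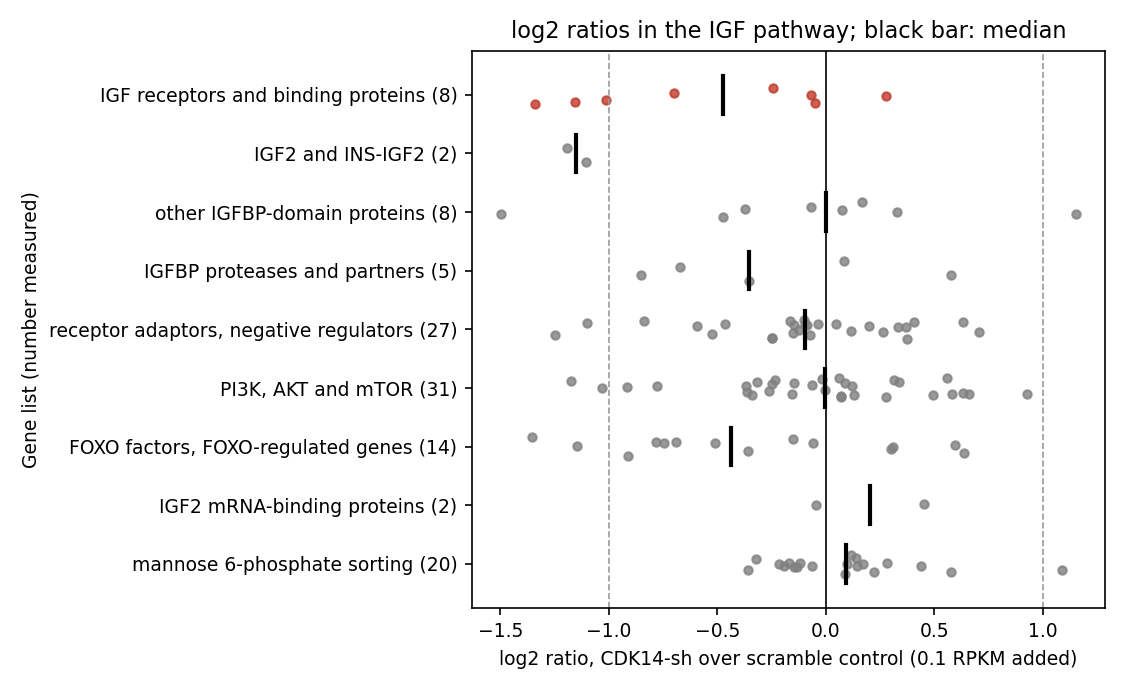
log2 ratio of CDK14-sh over scramble control (0.1 RPKM added) for each measured gene of the members and of 8 lists of the IGF pathway, with the number measured in parentheses, the median as a black bar and dashed lines at 2-fold. The members have a median of -0.47, the PI3K list lies around 0, and the FOXO list has a median of -0.43; vertical scatter within a list carries no meaning.

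Of 27 measured receptor adaptors and negative regulators, 2 were at least 2-fold lower and 0 at least 2-fold higher, with a median log2 ratio of -0.10. The shares over protein-coding genes that passed the level filter were 2.17% lower and 1.05% higher. In the list 17 genes lay below 0 and 10 above, with MDM2 at 0.70 and SOCS2 at 0.63. The 2 lower genes, ENPP1 and SOCS1, are negative regulators of the insulin receptor pathway. ENPP1, which binds INSR and restrains its activation, stood at 2.83 RPKM in CDK14-sh and 6.18 RPKM in the control, 2.19-fold lower (1.93 to 2.48). SOCS1, which targets IRS proteins for degradation, rests on 11 and 32 reads and was 2.62-fold lower (1.28 to 5.75).

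The PI3K, AKT and mTOR list had 31 measured genes and a median of -0.003, with 2 at least 2-fold lower and 0 higher. Over protein-coding genes the shares were 2.17% lower and 1.05% higher. PIK3CA, the alpha catalytic subunit of PI3K, stood at 2.77 RPKM in CDK14-sh and 5.75 RPKM in the control, 2.08-fold lower (1.85 to 2.34). It shares 3403 of 9411 exon bases with KCNMB3 on the opposite strand. PHLPP2, a phosphatase that turns off AKT, was 2.36-fold lower (2.03 to 2.77), and MARVELD3 on the opposite strand shares 1068 of its 12493 exon bases. The kinase genes AKT1 and AKT2 were within 1.11-fold, with AKT1 at 7.64 RPKM in CDK14-sh and 8.46 RPKM in the control and AKT2 at 5.79 and 5.31 RPKM. Other genes of the list differed more: MTOR was 1.75-fold lower (1.55 to 1.97) and PIK3R2 1.55-fold higher (1.44 to 1.67). With 1 RPKM added in place of 0.1, none of IGF2, INS-IGF2, ESM1, ENPP1, SOCS1, PIK3CA and PHLPP2 passed 2-fold, and with totals that exclude mitochondrial reads PIK3CA did not.

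Of 14 measured FOXO factors and genes that FOXO factors activate or control, 2 were at least 2-fold lower and 0 higher. The shares over protein-coding genes that passed the level filter were 2.17% and 1.05%. The list median was -0.43, and -0.32 with at least 30 reads. In the list 10 genes lay below 0 and 4 above, against 4796 below and 5625 above among those protein-coding genes. TXNIP and TRIB1 went the other way, at log2 ratios of 0.64 and 0.60. A shift of this short list was not tested. CCNG2, encoding cyclin G2, was 2.65-fold lower (2.24 to 3.14) and KLF6, a zinc finger transcription factor, 2.22-fold lower (2.08 to 2.37). Neither of the 2 measured IGF2 mRNA-binding proteins passed 2-fold. IGF2BP3 was 1.38-fold higher (1.24 to 1.53), and IGF2BP2, at 28.1 and 28.98 RPKM, had a ratio of 0.968 with an interval that includes 1 (0.912 to 1.03). The IGF2BP3 row shares 1521 bases with MALSU1 on the opposite strand.

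IGF2R works beside M6PR, the smaller mannose 6-phosphate receptor, in carrying enzymes to lysosomes. M6PR had 2738 reads in CDK14-sh (46.8 RPKM) and 1428 in the scramble control (22.0 RPKM), 2.13-fold higher (1.9999 to 2.28), while IGF2R had a ratio of 0.952. It shares 1105 of 3777 exon bases with PHC1 on the opposite strand, and in TPM it does not pass 2-fold. It was the only gene past 2-fold among 20 measured genes of mannose 6-phosphate tagging and sorting, whose median was 0.09. GNPTAB, the enzyme that starts the tag, stood at 4.23 and 3.95 RPKM.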

How the data were processed

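Libraries were made from total RNA with a stranded mRNA kit, per the labels' protocols. RPKM values for 29452 gene rows, with exon positions and lengths, were deposited by the authors. Tools named in the submitters' processing notes are Subread 1.5.1, featureCounts and Bowtie 0.12.2, and builds are GRCh38 and mm8, with no role stated. How strand, overlaps and multi-mapping reads were handled is not given in the sources used here. Member rows overlap GENCODE v29 genes of the same name on GRCh38.

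Reads were recovered as RPKM times length over the smallest step of each library, and 100% of values came out whole within 0.01 read. For each gene 0.1 RPKM was added to both levels before the log2 ratio of CDK14-sh over scramble control was taken, which shrinks the ratios of low genes. Genes below 1 RPKM in both libraries were left out of counts. Read recovery and the log2 ratio were run on counts simulated with counting error alone. That run did not cover the level filter, the intervals or variation between libraries. With 1 library per group, the precision is that of counting error.

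Members and the 8 gene lists were chosen with earlier results of these data known. Named genes are the members, CDK14, and from each list up to 4 genes past 2-fold with the largest ratio, or the 2 largest where none passed. Others (IGF1, IRS2, CYR61, CTGF, AKT1, AKT2, GNPTAB and overlapping rows) were named after their values were seen, for their role beside a member. MTOR, PIK3R2, MDM2, SOCS2, TXNIP and TRIB1 were also named after their values were seen, to show the spread of their lists. Alternatives covered pseudocount, level filter, scaling, threshold and gene type. The software was scipy 1.17.1, pandas 2.3.3 and matplotlib 3.10.9, with numpy 2.4.6, run in Python 3.11.15.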

Additional observations from a re-analysis of the deposited data

How the results depend on the processing

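No paired analysis was possible because there was a lone library in either group. Members at least 2-fold lower numbered 3 and members higher 0 as reported, and 2 were lower with mitochondrial reads left out and 4 at 1.5-fold. The log2 ratio of IGFBP4 was -1.01, and moved to -1.16 in TPM, to -1.05 with median centring and to -0.97, short of 2-fold, with totals that exclude mitochondrial reads. In TPM, IGFBP7 stood at -0.85, IGF1R at -0.20, IGF2R at -0.22 and IRS1 at -1.31. The median of the members was -0.47, and -0.86 with at least 5 RPKM, which leaves out IGF1R and INSR.

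Over all rows, 478 genes were 2-fold higher and 516 lower. A pseudocount of 1 RPKM gave 176 and 259, leaving out the level filter 2173 and 2043, a filter at 5 RPKM 83 and 177, at least 30 reads 205 and 329, a threshold of 1.5-fold 1355 and 1421, and protein-coding genes alone 109 and 226. In TPM 609 were higher and 1128 lower, and with mitochondrial reads left out 622 and 536. Both counts rose in each of these settings, which a common shift of the ratios alone cannot do. The pseudocount of 1 RPKM, which weighs more on low genes, left 0 lower genes among the ligands, the adaptors and the PI3K list and 0 higher among IGFBP-domain proteins. At least 5 RPKM left 1 lower in each of the ligand, adaptor, PI3K and FOXO lists and 0 higher IGFBP-domain proteins, whose median was -0.22. The median of the proteases was 0.082 with no level filter, with at least 5 RPKM and with at least 30 reads, settings that change which genes enter. In TPM the median was -0.22 for IGFBP-domain proteins, -0.51 for proteases with 1 lower, -0.15 for the PI3K list and 0.053 for the IGF2 mRNA-binding proteins, and 0 sorting genes were higher. With mitochondrial reads left out, 1 gene of the PI3K list was lower. At 1.5-fold, 2 proteases were lower, 2 adaptors were higher and 4 lower, 3 PI3K genes were higher and 4 lower, and 2 FOXO genes were higher and 6 lower. Of 351 values in alternatives, 303 stayed within their counting interval or within 1.5 times the count, 48 moved, and no value past 2-fold turned its direction. The depth limits IGF1, IGFBP5 and SOCS1 most.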

Other observations

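IGFBP1 and IGFBP3 are neighbours on chromosome 7, with 18576 bases between the ends of their rows, and point towards each other. They were looked at together after their values were seen. Both were lower in CDK14-sh, at log2 ratios of -1.50 and -1.34. Of the 8 rows that lie within 500 kb of the pair, itself included, 3 passed the level filter, the third being the transcribed pseudogene SEPT7P2, at 5.68 RPKM in CDK14-sh and 6.12 RPKM in the scramble control.

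An earlier look at these data had found 4 words of 7 bases (GTCATGC with its overlap TCATGCA, and ATCCATA with its overlap TCCATAA) to be common in the 3' untranslated regions of genes lower in CDK14-sh, picked from these same ratios. By that choice the words are common in the lower genes, so the shares given here are no separate result. At least 1 of the words stood in 56.4% of the 225 genes at least 2-fold lower. The shares were 15.7% of the 108 genes at least 2-fold higher and 24.5% of the 10062 genes within 2-fold. The median length of these regions was 1880 bases in the lower genes, 855.5 in the higher genes and 1357 in those within 2-fold, and longer regions hold a word more often. In none of the longest annotated 3' untranslated regions of IGFBP3, IGFBP4 and IRS1, the 3 members past 2-fold, did any of the words stand, nor in those of the other 6 members analysed. The region of IRS1 is 4955 bases long, and of 1064 genes with a region within 25% of that length 55.4% hold a word. Those of IGFBP3 (1605 bases) and IGFBP4 (1148 bases) compare with shares of 22.2% and 16.3% at like length. IGFBP1 and IGF2, both more than 2-fold lower, hold none either.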
